A study of Homo sapiens with 4 samples.

Results

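The MYC, MAX and MXD network was examined in RNA-seq of human leukemia cells labelled NB4, a promyelocytic line, after knockdown of LDB1. Its members were the rows of the deposited table whose gene name was 1 of 10 listed symbols, and 9 of them were found among 28412 genes. These were the activators MYC and MYCL, the shared partner MAX, the antagonists MXD1, MXI1, MXD3, MXD4 and MNT, and MLX. Expression of the listed MYCN was not analysed here.

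The control cells carried the lentiviral vector sh-NC and the knockdown cells carried sh-LDB1, an shRNA vector against LDB1, which encodes a cofactor that bridges LIM-domain and GATA factors on DNA. A label also calls the controls untreated, while their titles name the vector. The study describes several shRNAs against LDB1, without a label that tells which of them the sequenced cells carried. There were 4 libraries, 2 per group, with 14317599 to 16572738 reads recovered from the steps of the deposited values. Nothing in the labels says whether the replicates were separate cultures, so the p-values measure the spread between these libraries, which may be technical.

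MYC, MYCN and MYCL are basic helix-loop-helix leucine zipper proteins that bind DNA only as dimers with MAX. MAX also pairs with the MXD proteins, MXI1 and MNT, which recruit the SIN3 corepressor and so oppose MYC at the same sites. MLX is a related dimer partner that serves the glucose-sensing factors MLXIP (MondoA) and MLXIPL (ChREBP) and can pair with MXD1, MXD4 and MNT. In blood cells, MYC is known as a driver of growth and MXD1 as a gene of terminal myeloid differentiation.

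The site shared by these dimers is the E-box CACGTG, which reads the same on both strands. It was searched in RefSeq promoter windows of GRCh38.p14, which run from 250 bases before to 50 after each start. Of the 10 listed symbols, 9 had windows used here, MYCN among them. MYC had none, so its promoter was not searched. Of these 9, MLX, MNT and MXD4 held the E-box (33.3%). The same held for 8.77% of all genes with a window and 13.1% of those tested below. The sites of the 2 antagonists among them are shown because both genes rose, with the E-box in capitals. The MNT site lies at chr17:2401228-2401273 and the MXD4 site at chr4:2262322-2262359, both on the minus strand, upstream of every annotated exon.
MNT: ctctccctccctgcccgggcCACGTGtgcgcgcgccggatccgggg
MXD4: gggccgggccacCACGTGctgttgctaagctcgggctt

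Targets of the network are shown next to them as examples of genes that fell and of 1 that rose, picked after their values were seen. SLC7A5 (chr16:87869612-87869657, minus strand), ODC1 (chr2:10448016-10448061, minus strand) and PRMT3 (chr11:20387509-20387554, plus strand) fell in sh-LDB1. An E-box outside the annotated exons also stands before a RefSeq start of HK2 (chr2:74834956-74835001, plus strand), which rose.
SLC7A5: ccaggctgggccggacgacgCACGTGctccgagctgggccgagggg
ODC1: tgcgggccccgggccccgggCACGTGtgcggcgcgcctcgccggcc
PRMT3: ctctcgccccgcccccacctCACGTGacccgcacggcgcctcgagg
HK2: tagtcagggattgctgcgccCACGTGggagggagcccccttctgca

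The knocked-down gene was checked first. LDB1 was at 135.1 and 120.1 FPKM in the controls, against 10.2 and 9.47 FPKM after knockdown, which left 7.73% of the control level. FPKM are fragments scaled to gene length and to a divisor set for each library, so genes can be compared within a library. In the deposited values this divisor was 0.976 and 0.971 times the recovered reads in the controls, and 1.051 and 1.057 times after knockdown. The median ratio of genes to their geometric mean was 1.0083 in all 4 libraries. Small changes therefore depend on the scaling, and other scalings are given below. A mean of 1 FPKM or more was required for testing, which left 13300 genes. They were tested with limma on log2(FPKM + 1), and every log2 fold change below is on this scale, which understates the change of low genes. At a Benjamini-Hochberg adjusted p-value below 0.05, 67.4% of these genes were called (29.9% higher and 37.4% lower), and 19.8% were also past a fold change above 2 or below 0.5 on that scale. A call at the first threshold was therefore common among all genes.

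The labelled cell type was set against its markers. Of 8 promyelocytic markers, 6 had values (ELANE, PRTN3, AZU1, CSF3R, CD33 and CEBPE), and they summed to 6.80 and 6.04 FPKM in the controls, against 22.1 and 18.7 FPKM after knockdown. ELANE, the neutrophil elastase of promyelocyte granules, was listed at 0 FPKM in 3 libraries and had 3 reads in sh-LDB1 replicate 1. PRTN3, AZU1 and CSF3R were called higher (60% of those tested, against 29.9% of all genes), while CD33 and CEBPE were not called. The CEBPE mean went down, from 1.41 to 0.632 FPKM. The 8 erythroid markers reported here (KLF1, GATA1, HBG1, HBG2, HBZ, EPOR, ALAS2 and HEMGN) summed to 2613 and 2715 FPKM in the controls, against 221 and 206 FPKM after knockdown. Each of the 8 was lower and past the fold-change threshold, against 10.3% of all genes. HBG1 and HBG2 are nearly identical, so the split of reads between them is uncertain. The 4 monocytic markers (CD14, LYZ, ITGAM and CSF1R) summed to 6.10 and 5.81 FPKM and to 24.9 and 24.8 FPKM, in the same order. CD14 and CSF1R were under 1 FPKM in every library. The control libraries, labelled NB4, therefore held far more RNA of the erythroid than of the promyelocytic markers. The lymphoid markers CD3E and CD79A summed to at most 1.27 FPKM in any library. The erythroid sum thus moved with the groups in the direction of MYC, and its part in the results below was not tested. In bulk RNA, fewer cells of a type and less RNA per cell cannot be told apart.

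Both activators fell. MYC (ENSG00000136997; chromosome 8, 127735434 to 127742951, plus strand) was at 159.1 and 160.9 FPKM in the controls, against 27.3 and 28.1 FPKM after knockdown. The 2 control libraries stood far above the 2 knockdown libraries, and 17.3% of the control level was left. The log2 fold change was -2.49 ± 0.0398 (standard error; limma adjusted p = 6.77e-05), on 1276 to 7725 recovered reads per library. MYCL (ENSG00000116990; chromosome 1, 39895428 to 39902256, minus strand), the family member first found in lung cancer, was at 2.72 and 2.91 FPKM in the controls, against 0.764 and 0.757 FPKM after knockdown. The groups did not overlap, which held for 84.6% of all genes tested. MYCL reached the filter of 1 FPKM only through the controls, so among genes that pass it a difference was built in, and with no filter its limma adjusted p was 0.00605. MYCL fell by 1.11 on the log2 scale (standard error 0.107, limma adjusted p = 0.00108), and its mean in sh-LDB1 was 27.0% of that in sh-NC. At a pseudocount of 0.01 the log2 fold change of MYCL was -1.87, since a pseudocount of 1 weighs on a gene this low. Even in sh-NC, MYC stood far above MYCL, at 160 ± 1.29 against 2.81 ± 0.131 FPKM (SD, n = 2 each).

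**Figure D1:**
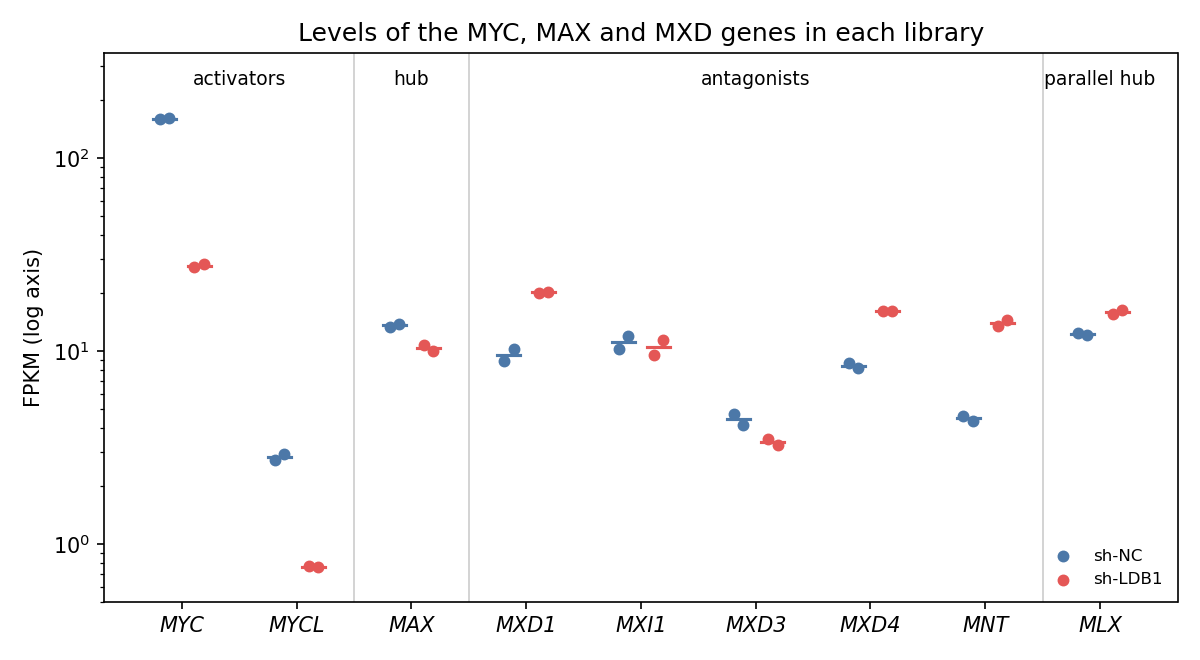
FPKM on a log axis of the 9 members in each library, with sh-NC in blue and sh-LDB1 in red; points are libraries and short lines are means of 2 libraries. MYC and MYCL lie lower in both sh-LDB1 libraries, MXD1, MXD4, MNT and MLX lie higher, and MXI1 overlaps between the groups.

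MAX, the partner with which the activators and antagonists bind DNA, moved much less than MYC. MAX (ENSG00000125952; chromosome 14, 65006174 to 65102695, minus strand) was at 13.25 and 13.85 FPKM in the controls, against 10.7 and 9.97 FPKM after knockdown. Both knockdown libraries were below both control libraries, and for 84.6% of all genes tested the groups did not overlap. MAX fell by 0.36 on the log2 scale (standard error 0.0589, limma adjusted p = 0.00566), and 76.2% of the control level was left. With the libraries scaled to equal summed FPKM, which moved the median of all genes by 0.14, the log2 fold change of MAX was -0.20 (limma adjusted p = 0.0304). Relative to the median of all genes it was -0.28 in the deposited scaling and -0.27 in this one.

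Of the 5 antagonists, 3 rose (60%, against 29.9% of all genes), 1 fell (20%, against 37.4%) and 1 was not called. With 5 genes these shares are a description only. The largest rise was that of MNT, the most widely expressed antagonist of the family. MNT (ENSG00000070444; chromosome 17, 2384073 to 2401104, minus strand) was at 4.62 and 4.33 FPKM in the controls, against 13.4 and 14.5 FPKM after knockdown. Its mean was 3.11 times that of the control, and the groups were far apart. The log2 fold change of MNT was 1.45 ± 0.0661 (standard error; limma adjusted p = 0.000165), on 557 to 1910 reads per library.

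MXD1, the antagonist tied to differentiation, was at 8.88 and 10.2 FPKM in the controls, against 20 and 20.2 FPKM after knockdown. MXD1 (ENSG00000059728; chromosome 2, 69897688 to 69942945, plus strand) was 2.11 times the control level, with the 2 knockdown libraries closer to each other than the 2 control libraries were. The log2 fold change was 1.00 ± 0.0748 (standard error; limma adjusted p = 0.000522), which lies at the fold-change threshold and passed it narrowly. Without sh-NC replicate 1 it was 0.91 and below that threshold, and without sh-LDB1 replicate 2 it was again just below it, while the adjusted p-values were 0.00191 and 0.00606 (limma).

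MXD4 (ENSG00000123933; chromosome 4, 2247432 to 2262109, minus strand) was at 8.64 and 8.13 FPKM in the controls, against 16.1 FPKM in both knockdown libraries. The knockdown level was 1.92 times the control level. MXD4 rose by 0.86 on the log2 scale (standard error 0.053, limma adjusted p = 0.000317), under the fold-change threshold, and by 1.02 with equal summed FPKM.

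The other antagonists did not share this direction. MXD3 (ENSG00000213347; chromosome 5, 177301461 to 177312757, minus strand), which is known from cycling cells, was at 4.74 and 4.12 FPKM in the controls, against 3.49 and 3.24 FPKM after knockdown. Its log2 fold change was -0.31 (standard error 0.0893, limma adjusted p = 0.0335). The groups did not overlap, which held for 84.6% of all genes tested. The call of MXD3 was not stable. With equal summed FPKM the log2 fold change of MXD3 was -0.18 (limma adjusted p = 0.144), with a median of ratios over expressed genes -0.23 (0.076), and without sh-NC replicate 1, sh-LDB1 replicate 1 or sh-LDB1 replicate 2 the limma adjusted p-values were 0.121, 0.086 and 0.141. MXI1 (ENSG00000119950; chromosome 10, 110207605 to 110287365, plus strand), also called MXD2, was at 10.3 and 12.0 FPKM in the controls, against 9.54 and 11.4 FPKM after knockdown. The groups overlapped. Its log2 fold change was -0.08 ± 0.113 (standard error; limma adjusted p = 0.539), and it changed sign to 0.07 with equal summed FPKM.

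**Figure D2:**
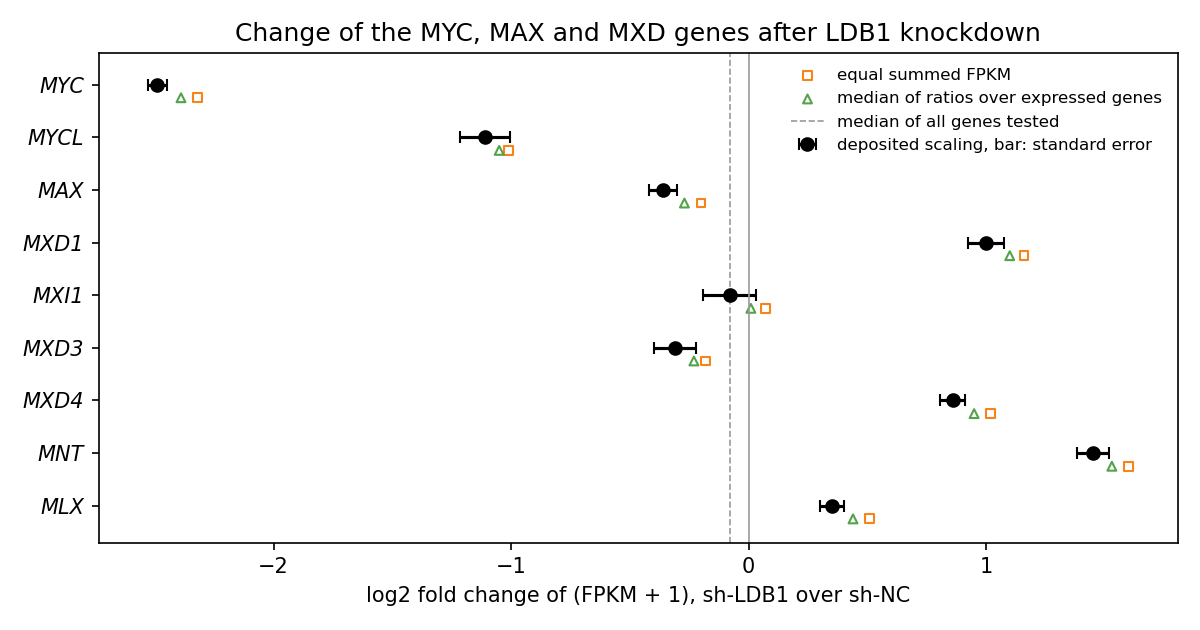
Log2 fold change of (FPKM + 1), sh-LDB1 over sh-NC, for each member: black points with bars of 1 standard error in the deposited scaling (n = 2 per group), open symbols under 2 other scalings, and a dashed line at the median of all genes tested (-0.08). MYC (-2.49) and MNT (1.45) lie at the ends, and MXI1 is the member whose sign turns with the scaling.

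Across the 9 members, 4 were called higher and 4 lower, or 88.9% in either direction against 67.4% of all genes. The fold-change threshold was passed by 2 higher members (MNT and MXD1) and 2 lower ones (MYC and MYCL, the latter tested only through its control level), against 9.50% higher and 10.3% lower among all genes. The median of the members was -0.08, equal to that of all genes tested, so the members spread to both sides of it. With so few members these shares are a description only.

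The balance of activators and antagonists was then taken from the sums of their FPKM. The summed activators were 162 and 164 FPKM in the controls, against 28.1 and 28.9 FPKM after knockdown. The summed antagonists were 37.2 and 38.7 FPKM in the controls, against 62.5 and 65.3 FPKM after knockdown. The sum of the activators thus dropped to 0.175 times the control, and that of the antagonists was 1.68 times the control. Antagonists over activators gave a ratio of 0.233 ± 0.00482 in sh-NC and of 2.25 ± 0.0255 in sh-LDB1 (SD, n = 2 each), a 9.63-fold difference far beyond the spread within either group. No p-value was computed for this sum over members. MYC alone made up 80.0% and 79.4% of the activators and antagonists together in sh-NC, and 30.1% and 29.8% after knockdown. Scaling does not touch these ratios, since each is taken within a library.

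The sum was also set against MAX. In sh-NC, activators and antagonists together were 15.0 and 14.6 times the FPKM of MAX, and MYC alone was 12.0 and 11.6 times. In sh-LDB1 they were 8.47 and 9.45 times the FPKM of MAX, and MYC 2.55 and 2.82 times. For the antagonists alone these values went from 2.80 in both sh-NC libraries to 5.84 and 6.55 in sh-LDB1. These are ratios of transcripts, and the data used here hold no protein. In separate experiments, the study reported lower c-Myc protein by Western blot after LDB1 knockdown.

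**Figure D3:**
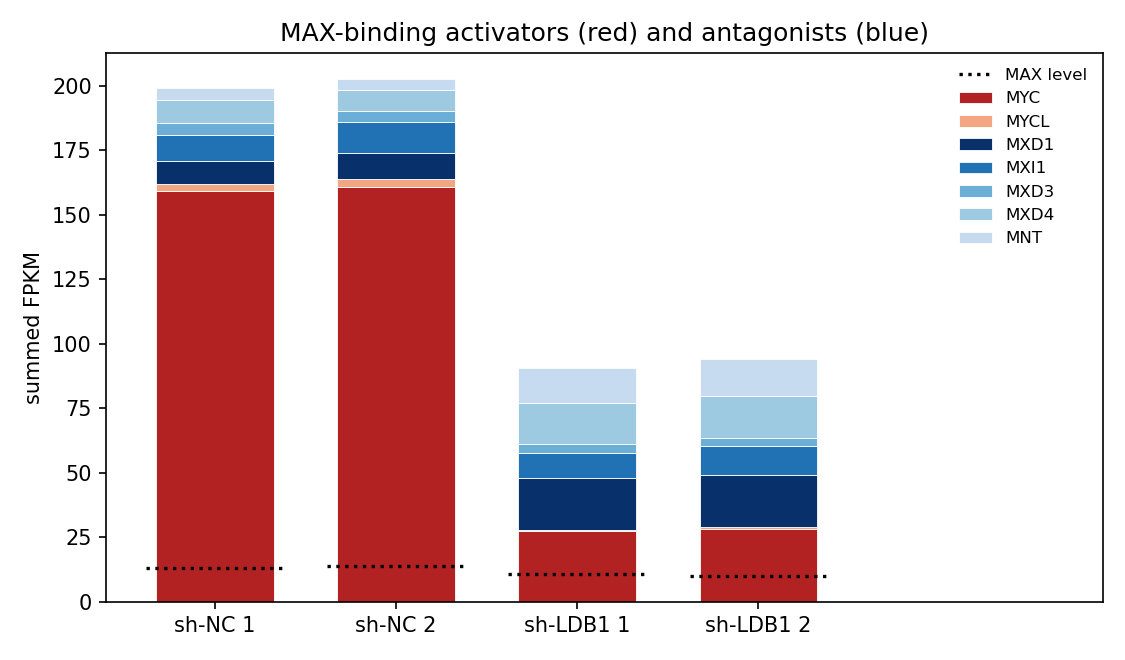
Summed FPKM of the MAX-binding activators (red) and antagonists (blue) in each library, with the level of MAX as a dotted line. MYC fills most of the bar in both sh-NC libraries (80.0% and 79.4%) and under 1 part in 3 in both sh-LDB1 libraries (30.1% and 29.8%).

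The order of the levels changed with it. In sh-NC the order was MYC, MAX, MLX, MXI1, MXD1, MXD4, MNT, MXD3 and MYCL, and only MNT and MXD3 overlapped as neighbours. In sh-LDB1 it was MYC, MXD1, MXD4, MLX, MNT, MXI1, MAX, MXD3 and MYCL. There, MXD4 overlapped with MLX, and MXI1 with MAX. MYC was first in both groups, but its lead over the next gene went from 160 against 13.6 FPKM (MAX) to 27.7 against 20.1 FPKM (MXD1). The MAX mean was second of the 9 in sh-NC and seventh in sh-LDB1.

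MLX rose while its Mondo partners fell. MLX (ENSG00000108788; chromosome 17, 42567072 to 42573239, plus strand) was at 12.4 and 12.2 FPKM in the controls, against 15.55 and 16.31 FPKM after knockdown. The 2 knockdown libraries were both higher, by 0.35 on the log2 scale (standard error 0.05, limma adjusted p = 0.0037). MLXIP, the larger Mondo partner, was at 28.6 and 28.8 FPKM in the controls, against 21.4 and 22.4 FPKM after knockdown, and fell by 0.38 (limma adjusted p = 0.00211). MLXIPL was low and fell from 2.82 ± 0.0333 to 1.30 ± 0.203 FPKM (SD, n = 2 each), a log2 fold change of -0.74 (limma adjusted p = 0.00438). MGA, the remaining MAX partner, was at 4.807 and 4.403 FPKM in the controls, against 4.60 and 4.39 FPKM after knockdown. MGA was not called, at -0.03 ± 0.072 on the log2 scale (standard error; limma adjusted p = 0.751).

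Both listed target genes of MLX and its partners rose, as did 29.9% of all genes. Both passed the fold-change threshold, as did 9.50% of all genes in this direction. TXNIP, the inhibitor of thioredoxin and of glucose uptake, went from 180.4 and 186.2 FPKM to 709.7 and 691.1 FPKM. Its mean in sh-LDB1 was 3.82 times that in sh-NC (1.93 ± 0.0439 SE on the log2 scale, limma adjusted p = 7.03e-05). ARRDC4, an arrestin relative of TXNIP, went from 6.89 and 8.26 FPKM to 36.2 and 34.6 FPKM, a mean 4.67 times that of the control (log2 fold change 2.09, limma adjusted p = 0.000154). For both genes the groups did not overlap, which held for 84.6% of all genes tested. These factors are known to bind a spaced pair of E-box-like motifs, so CACGNG followed by CACGNG after 5 bases was searched on both strands. Of all genes with a window, 0.0732% held this pair, TXNIP among them, at chr1:145996631-145996687 on the minus strand. None of the members' windows held it. ARRDC4 held a CACGTG instead, at chr15:97960473-97960518 on the plus strand. The capitals mark the matches.
TXNIP: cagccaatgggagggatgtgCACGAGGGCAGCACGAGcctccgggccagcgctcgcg
ARRDC4: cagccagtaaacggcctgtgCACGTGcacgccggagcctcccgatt

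Genes that MYC is known to activate were mostly lower. The first list held 57 targets of ribosome biogenesis and growth, of which 54 were tested. Of these, 43 were lower (79.6%, against 37.4% of all genes), 4 were higher and 7 were not called, with a median log2 fold change of -0.98 against -0.08 for all genes. Past the fold-change threshold 26 were lower and 0 higher, against 10.3% lower and 9.50% higher among all genes. DUSP2, IPO4 and NOP2 were under the filter.

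The largest falls of this list were those of HSPD1, PA2G4 and SORD. HSPD1, the mitochondrial chaperonin, was at 204.6 and 218.5 FPKM in the controls, against 24.9 FPKM in both knockdown libraries (-3.04 ± 0.0486 SE on the log2 scale, limma adjusted p = 6.77e-05). PA2G4, a nucleolar growth regulator, was at 88.9 and 95.9 FPKM and at 20.4 and 21.1 FPKM, in the same order. SORD, sorbitol dehydrogenase, was at 15.1 and 15.0 FPKM and at 2.71 and 2.79 FPKM. PA2G4 and SORD both fell by 2.10 on the log2 scale. The largest rises were smaller, at 0.75 for MAP3K6, 0.67 for NOC4L and 0.48 for HK2, the hexokinase that starts glycolysis. MAP3K6 was low, at 1.598 and 1.561 FPKM in the controls, against 2.71 and 4.04 FPKM after knockdown.

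The second list held 19 other E-box targets, all of them tested. Of these, 16 were lower (84.2%, against 37.4% of all genes) and 3 higher (15.8%, against 29.9%), with a median of -0.94. Past the fold-change threshold 7 were lower and 1 was higher, against 10.3% lower and 9.50% higher among all genes. CDC25A, a phosphatase that opens the S phase, fell from 24.2 ± 2.16 to 3.84 ± 0.253 FPKM (SD, n = 2 each), with a log2 fold change of -2.38. TERT, the catalytic subunit of telomerase, was at 4.77 and 5.58 FPKM in the controls, against 0.298 and 0.23 FPKM after knockdown (log2 fold change -2.29, limma adjusted p = 0.000217). TERT passed the filter only through the controls, on 16 and 22 reads after knockdown, so its call adds no support to these counts. SLC7A5, a transporter of large amino acids, fell by 1.89, and ODC1, the first enzyme of polyamine synthesis, fell by 1.70 from 167.2 and 164.8 FPKM to 48.8 and 51.9 FPKM. The 3 higher genes were POLR3D (1.27), a subunit of RNA polymerase III, and the glycolytic enzymes ENO1 (0.62) and LDHA (0.16). ENO1 was at 602.7 and 584.8 FPKM in the controls, against 915.7 and 911 FPKM after knockdown. The fall of the erythroid sum given above ran beside both lists.

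The E-box was common in both lists. Of the first list, 25 of the 46 genes with a window held CACGTG (54.3%), and of the second 7 of 13 (53.8%). The same held for 8.77% of all genes with a window and 13.1% of the tested genes with a window. The second list was chosen as E-box targets, so its share partly restates that choice. Within the first list, 20 of the 22 tested genes with the E-box were lower (median -1.06), and 16 of the 21 without it (median -0.82). In the second list, 6 of 7 with it were lower (median -1.31), and 5 of 6 without it (median -0.73). Of the 13300 genes tested, 8399 had a window. Among these, the 1104 with an E-box had a median of -0.10 and 43.5% lower calls. The 7295 without one had a median of -0.09 and 41.1% lower calls. An E-box in the window alone therefore went with nearly the same shares of calls as its absence. A match is a string of letters and not a site shown to be bound.

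Genes that MYC is known to repress were mostly higher among those tested. Of 9 such genes 8 were tested, and 7 were higher (87.5%, against 29.9% of all genes) and 1 was lower, with a median of 1.32. CLU and CCNG2 reached the filter only through sh-LDB1, where they were high, so their calls add no support to this count. CEBPA was under the filter, at 0.244 ± 0.0535 FPKM in the controls, against 0.339 ± 0.124 FPKM after knockdown (SD, n = 2 each). CDKN1A, the p21 inhibitor of cyclin-dependent kinases, rose from 3.22 and 3.98 FPKM to 30.7 and 31.0 FPKM (log2 fold change 2.80, limma adjusted p = 0.000106). CLU, the chaperone clusterin, rose from 0.224 and 0.297 FPKM to 8.50 and 8.92 FPKM (2.95 on the log2 scale). NDRG1, a gene of stress and differentiation, rose from 18.3 and 17.0 FPKM to 79.0 and 76.9 FPKM (2.08). The integrin chain ITGB1 rose by 0.47. CCNG2 rose by 0.74, which a pseudocount of 1 understates for a gene this low. Its mean went from 0.544 to 1.58 FPKM, 2.91 times the control. GADD45A, a gene of the DNA damage response, was the exception and fell by 0.90, from 73.3 and 64.6 FPKM to 35.6 and 37.3 FPKM.

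**Figure D4:**
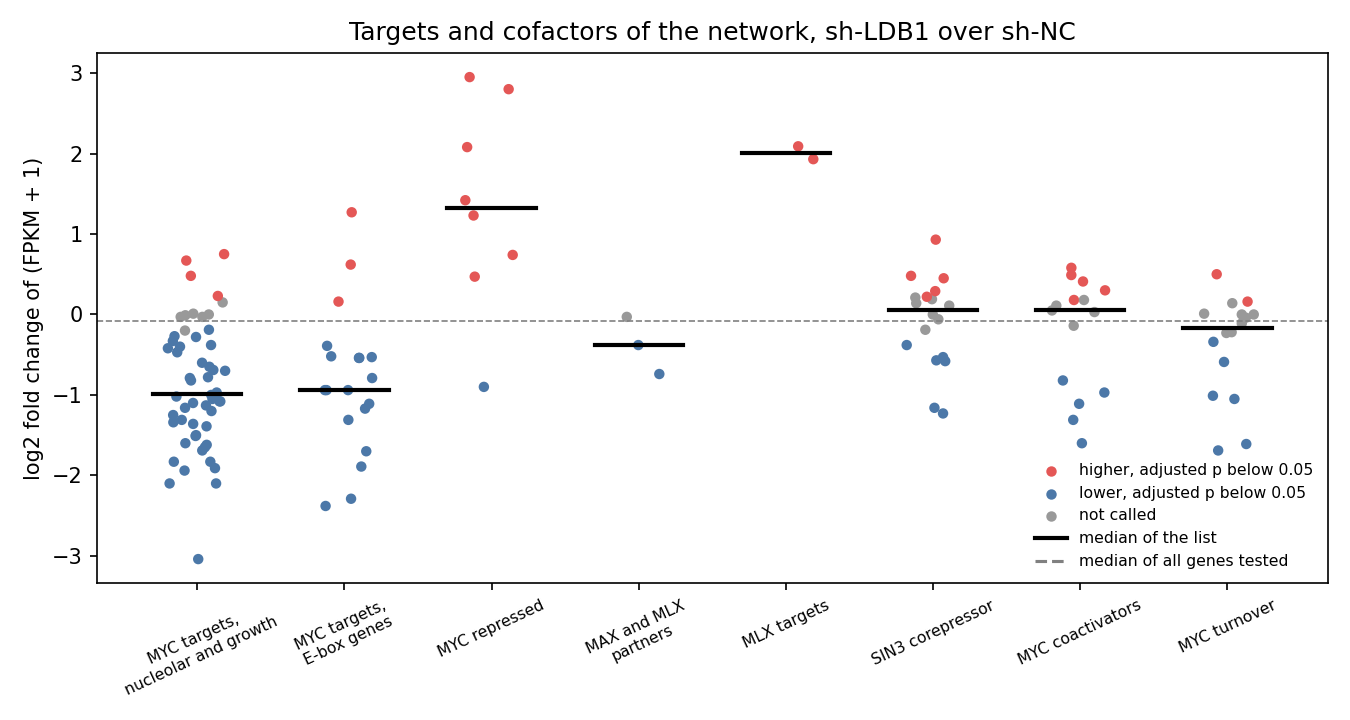
Log2 fold change of (FPKM + 1), sh-LDB1 over sh-NC, for every tested gene of the target and cofactor lists; each point is a gene, colours give the limma call, black lines are list medians and the dashed line is the median of all genes tested. The 2 lists of activated targets have medians of -0.98 and -0.94, the repressed list 1.32, and the SIN3, coactivator and turnover lists lie near the median of all genes.

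The cofactors moved in both directions. Of 18 genes of the SIN3 corepressor, through which the antagonists act, 5 were higher and 6 lower (27.8% and 33.3%, against 29.9% and 37.4% of all genes; median 0.06). The 5 higher became 3 without sh-NC replicate 1, sh-LDB1 replicate 1 or sh-LDB1 replicate 2, and 7 with equal summed FPKM. SIN3B rose from 10.1 and 9.80 FPKM to 20.1 and 19.7 FPKM (log2 fold change 0.93, limma adjusted p = 0.000209). SIN3A was at 5.66 and 5.75 FPKM in the controls, against 6.60 and 6.20 FPKM after knockdown and was not called (limma, adjusted p = 0.0996). The accessory subunits BRMS1 (0.48) and SAP18 (0.45) rose. The histone chaperones RBBP4 (-1.23) and RBBP7 (-1.16) and the deacetylase HDAC1 (-0.58) fell.

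Of 15 coactivators of MYC, 5 were higher and 5 lower (33.3% each, against 29.9% and 37.4% of all genes; median 0.05). With equal summed FPKM 8 were higher and 5 lower. The higher count was 2 without sh-LDB1 replicate 1, and 3 without sh-LDB1 replicate 2 or sh-NC replicate 2. The acetyltransferase KAT2A (-1.60), the ATPase RUVBL1 (-1.31) and the MYC-binding WDR5 (-1.11) fell, while EP300 (0.58), CREBBP (0.49) and the elongation kinase CDK9 (0.41) rose. Among 16 genes of MYC protein turnover, 2 were higher and 6 lower (12.5% and 37.5%, against 29.9% and 37.4% of all genes; median -0.16). The 2 higher became 4 with equal summed FPKM, and 1 without sh-LDB1 replicate 1, sh-LDB1 replicate 2 or sh-NC replicate 2. CIP2A, which shields MYC from a phosphatase, fell by 1.69, the ubiquitin ligase subunit SKP2 by 1.61 and the scaffold AXIN1 by 1.05. PPP2R5A, a phosphatase subunit (0.50), and the deubiquitinase USP36 (0.16) rose. FBXW7, the ligase subunit that marks MYC for decay, was at 1.71 and 1.61 FPKM in the controls, against 1.64 and 1.66 FPKM after knockdown, and was not called (limma, adjusted p = 0.971); it was named after its values were seen.

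Next to MYC on chromosome 8, the long noncoding transcript PVT1 was at 21.4 and 20.2 FPKM in the controls, against 2.82 and 2.44 FPKM after knockdown. The 2 groups were far apart, and 12.6% of the control level was left. PVT1 fell by 2.59 on the log2 scale (standard error 0.0753, limma adjusted p = 8.67e-05), beside a log2 fold change of -2.49 for MYC. CASC11, which overlaps MYC on the opposite strand, had 0 to 3 reads per library, too few for a fold change. The use of strand in the counting was not given in the sources used here, so reads of overlapping transcripts on the 2 strands cannot be told apart.

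Genes with the most similar pattern over the 4 libraries were looked up among 4512 coding genes whose mean reached 10 FPKM. Likeness was the Euclidean distance of log2(FPKM + 1) after centring each gene. Nearest to MYC was FECH, the last enzyme of heme synthesis (distance 0.031, log2 fold change -2.50). Next came HEPH, a copper-dependent iron oxidase (0.0851, -2.57), and GFI1B, a repressor of transcription in erythroid and megakaryocytic cells (0.0962, -2.55). Nearest to MNT were HSPA1B (0.0547, 1.49), the cargo receptor SURF4 (0.066, 1.42) and the lysosomal fucosidase FUCA1 (0.0742, 1.49). HSPA1B is nearly identical to HSPA1A, so its level is uncertain. With 2 groups of 2 libraries such a distance mostly reads the size of the group difference.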

How the data were processed

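RNA-seq of 2 sh-NC and 2 sh-LDB1 libraries, grouped and numbered by the sample titles, was analysed. The authors filtered and mapped the reads (HISAT2 2.0.5 and hg38 in the submitters' processing notes) and deposited FPKM, with 1 value per gene and library. The counting tool, the annotation and the use of strand are not given in the sources used here. The table held 0 further columns of per-sample values.

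Reads were recovered from the steps of the FPKM with exon lengths of GENCODE release 44 (whole within 0.02 in all 4 libraries for 99.3% of genes). They served as depth, as the basis of the simulated data and in a limma fit on reads (voom) among the other settings. Genes reaching a mean of 1 FPKM were compared as log2(FPKM + 1) with limma 3.58.1 in R 4.3.3 (eBayes with trend, no replicate block, Benjamini-Hochberg adjustment), and other steps used Python 3.11.15. Replicates were not identical (chi-square over genes, divided by their number, 4.46 for the controls and 2.16 after knockdown). The fit was tested on simulated data.

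The members and lists were chosen with earlier results of these data known, and the lists were written by hand from general knowledge. Named genes were the members, LDB1, the markers, all genes of lists of up to 3 genes, the 3 highest and 3 lowest called genes of longer lists, and the 3 nearest patterns to MYC and MNT. ODC1, PRMT3, SIN3A, FBXW7 and genes under the filter were named beyond this rule, after their values were seen. Coordinates are GRCh38. Of the listed markers, 1 erythroid and 1 lymphoid gene are not reported here and entered no sum.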

Additional observations from a re-analysis of the deposited data

How the results depend on the processing

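Results were recomputed under other pseudocounts, filters, scalings and models and without each replicate. MYC, LDB1 and MNT were called in all 15 settings, with log2 fold changes from -2.53 to -2.32, from -3.69 to -3.40 and from 1.40 to 1.64. MAX, MLX, MXD1 and MXD4 were called in 14 of 15 settings and MYCL in 13 of 14, and lost the call when limma treat tested against a fold change of 2. MXD3 was called in 7 of 14 and MXI1 in none of 15. By treat, 1 member was higher and 1 lower, and 8.64% of all genes were called in either direction. The activated targets then held 0 higher and 16 lower genes in the first list and 1 higher and 4 lower in the second, and the repressed list 0 lower. A mean of at least 5 FPKM, which removes MYCL and MXD3, left 2 members lower. Equal summed FPKM gave 7 higher genes in the first target list. Leaving MXD3 out of the antagonists gave ratios of 0.206 in sh-NC and 2.13 in sh-LDB1. The replicate numbers did not pair the libraries (correlation of deviations 0.0196 across genes), and the fit with the replicate block kept 4 higher and 4 lower members. Among the members, MYCL had the fewest reads (58 to 223).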
